A study of Rattus norvegicus with 32 samples.

Results

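Cytochrome P450 (Cyp), UDP-glucuronosyltransferase (Ugt1 and Ugt2) and sulfotransferase (Sult) genes were described in normal mammary gland of rats. Members were the probe sets with 1 gene symbol that starts with Cyp and a digit, Ugt1, Ugt2 or Sult, without the sterol synthesis gene Cyp51. They numbered 109 probe sets of 66 genes, out of 8799 probe sets on the array. Each array was a single-colour Affymetrix rat array hybridised with RNA of 1 sample. Single samples were hybridised on 30 arrays in 6 groups of 5. The inbred strains were WF, BUF/N, ACI, F344 and Cop, and the sixth group, F1, was the cross of Cop with F344. The 2 further arrays, a Cop pool and an F344 pool, entered no comparison between groups. The labels describe all samples as normal mammary gland and give no treatment, age, sex or stage of the oestrous cycle. Whether each sample is a different animal is not stated there, so a p-value here reflects only the scatter among these samples, which may be technical. The study was set up around the genetics of mammary carcinogenesis in these strains.

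P450 enzymes insert oxygen into fat-soluble molecules, and the same reaction can detoxify a foreign chemical or turn it into a DNA-binding carcinogen. The CYP1, CYP2 and CYP3 families mainly handle drugs and pollutants, the CYP4 family hydroxylates fatty acids, and other P450s make or break down steroids, bile acids and vitamin D. Glucuronosyltransferases and sulfotransferases attach a sugar acid or a sulfate group to the product or to a hormone such as oestradiol, which makes it easier to excrete. Most of these enzymes are known best from the liver. In the mammary gland they are of interest because chemical carcinogens such as polycyclic aromatic hydrocarbons are activated and cleared in the tissue itself.

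The promoters of 4 genes whose differences between groups are described at length are shown, as the 250 bases before the start of the gene, 5′ to 3′ in the gene's own direction. They are RefSeq sequences of build GRCr8 from the reference genome and not from the strains compared. Capitals mark GCGTG (the core bound by the aryl hydrocarbon receptor and its partner Arnt), TATAAA (a core promoter box), AGGTCA (nuclear receptor half-site) and GGGCGG (GC box), on either strand. A match on the other strand appears as its reverse complement, and no 2 matches overlapped in these sequences. Cyp2e1 lies on the plus strand, chr1:205269717-205269966.
Cyp2e1: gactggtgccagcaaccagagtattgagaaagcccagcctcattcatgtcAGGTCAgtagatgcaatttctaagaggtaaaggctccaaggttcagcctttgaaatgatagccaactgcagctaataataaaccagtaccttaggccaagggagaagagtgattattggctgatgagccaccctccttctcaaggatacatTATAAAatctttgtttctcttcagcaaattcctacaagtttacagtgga
Sult1a1 lies on the minus strand, chr1:190706113-190706362.
Sult1a1: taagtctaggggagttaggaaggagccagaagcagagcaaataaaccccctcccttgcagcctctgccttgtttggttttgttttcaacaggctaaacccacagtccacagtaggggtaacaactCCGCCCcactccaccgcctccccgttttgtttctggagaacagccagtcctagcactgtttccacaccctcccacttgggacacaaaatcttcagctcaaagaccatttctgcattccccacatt
Cyp27a1 lies on the plus strand, chr9:83713282-83713531.
Cyp27a1: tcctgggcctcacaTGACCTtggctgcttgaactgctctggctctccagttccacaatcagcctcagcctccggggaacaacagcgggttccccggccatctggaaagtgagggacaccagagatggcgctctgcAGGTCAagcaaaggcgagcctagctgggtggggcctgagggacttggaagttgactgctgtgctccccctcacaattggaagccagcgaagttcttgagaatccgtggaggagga
Cyp1b1 lies on the plus strand, chr6:21094315-21094564.
Cyp1b1: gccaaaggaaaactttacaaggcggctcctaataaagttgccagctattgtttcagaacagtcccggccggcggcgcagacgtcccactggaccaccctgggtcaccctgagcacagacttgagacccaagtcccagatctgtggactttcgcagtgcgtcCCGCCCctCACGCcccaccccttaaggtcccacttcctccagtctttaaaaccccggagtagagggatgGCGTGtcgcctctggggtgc
The receptor core GCGTG appeared in the Cyp1b1 promoter, and Cyp1b1 is known as a target of that receptor. It was found in 3 of the 21 member genes with a tested probe set and a promoter in the table, against 25.9% of all 33469 promoters. TATAAA was found in 6 of the 21 (12.9% of all promoters), AGGTCA in 6 (14.1%) and GGGCGG in 7 (30.5%). In all, 51 of the 66 member genes had a promoter in the table. A match is a description of letters and not a binding site.

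Values are Affymetrix MAS 5.0 signals, a linear brightness with no fixed unit, scaled by the authors to the same trimmed mean on each array. The median of all signals on the 30 arrays was 78.4, and it served as the level above which a gene is called expressed here. Testing was limited to probe sets above this level on 5 or more of the 30 arrays, and changes were fitted as log2 signal with signals under 18.3 set to that floor. Of the 30 arrays, ACI 2 and ACI 5 had the highest median signals (102.1 and 101.8) and F1 3 and F1 2 the lowest (65.8 and 67.1). The actin 3′ to 5′ ratio, a sign of RNA length, was 1.01 to 1.98. The ratio was 1.78 on ACI 2 and 1.80 on ACI 5, against 1.19 to 1.34 on the other ACI arrays, and 1.49 on F1 2 and 1.27 on F1 3. Results that rest on those 4 arrays are given with and without them. As the gland is a mixture, fewer cells of a type and less RNA per cell cannot be told apart.

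Most members gave little signal in the mammary gland. Above the median on at least 5 arrays were 33 of the 109 probe sets (30.3%), for 24 of the 66 genes, against 57.7% of the 8740 probe sets on the array that are no controls. Above it on all 30 arrays were 8 (7.34%), against 33.4% of the array. On no array above it were 62 probe sets, and 15 of these never rose above the floor, against 2838 and 658 of the 8740. The 8 constant ones were both probe sets of Sult1a1, and 1 each of Sult5a1, Cyp2d4, Cyp27a1, Ugt2b, Cyp4f6 and Cyp2a1. The numbers tested by role were 3 of 8 in CYP1, 12 of 38 in CYP2, 3 of 7 in CYP3, 4 of 12 in CYP4, 2 of 5 in steroid synthesis and 4 of 9 in the oxidation of bile acids, sterols, vitamin D and retinoids. Among the transferases they were 0 of 2 in UGT1, 1 of 10 in UGT2, 2 of 7 in SULT1 and 2 of 11 in SULT2 and other sulfotransferases.

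**Figure D1:**
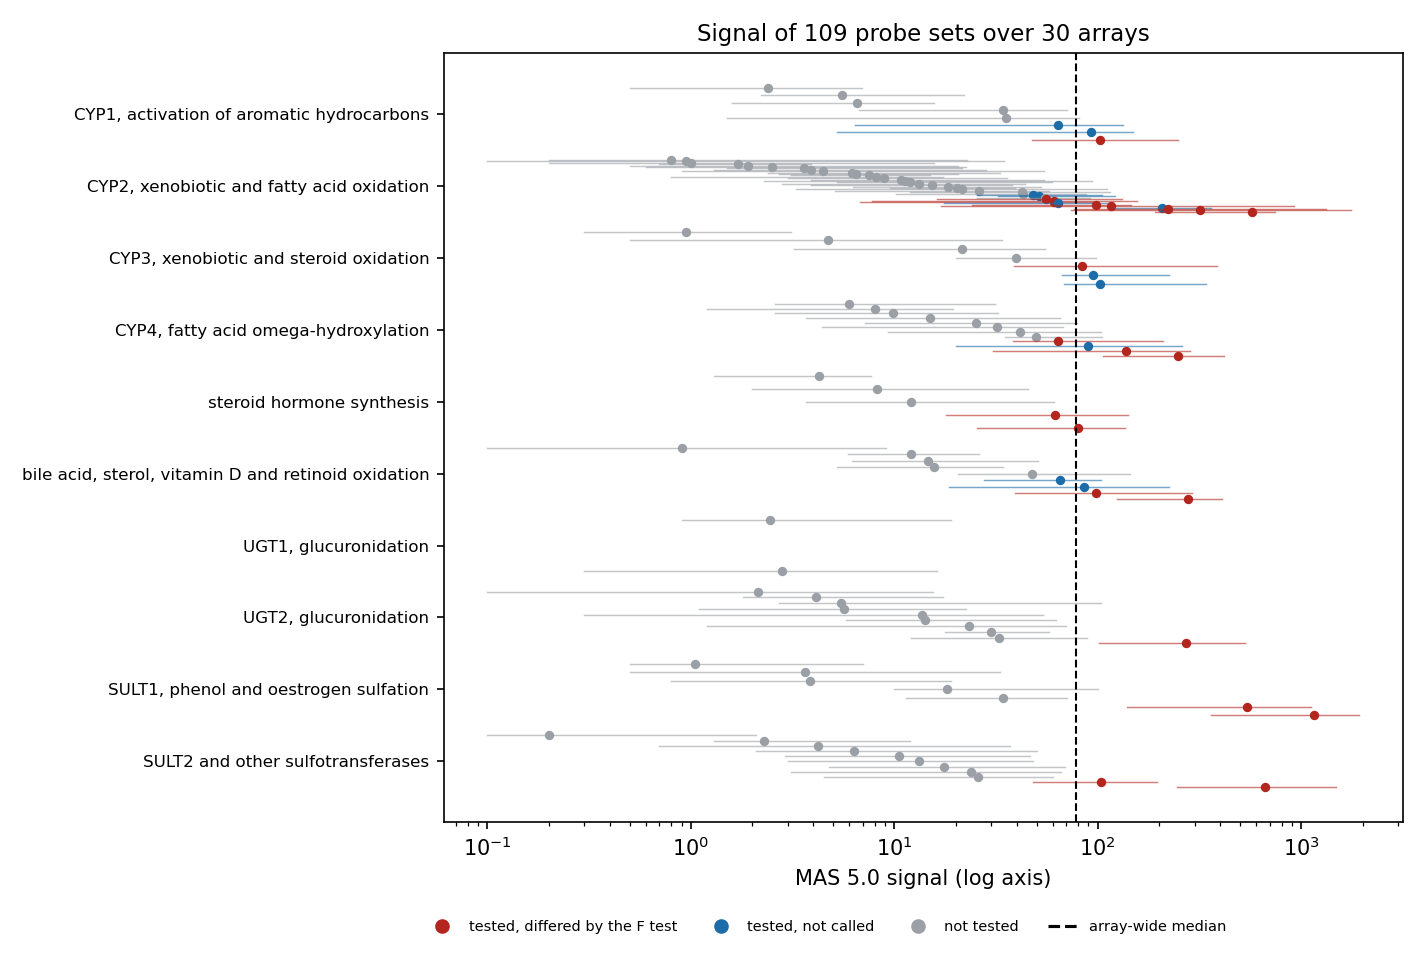
Signal of the 109 probe sets on the 30 arrays (log axis, signals under 0.1 drawn at 0.1), grouped by role; points are medians, lines run from the lowest to the highest array, and the dashed line is the array-wide median of 78.4. Of the 109 probe sets, 76 were above that line on fewer than 5 arrays, and the brightest, a probe set of Sult1a1, had a median of 1158.

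Several enzymes known from the liver or from exposure to pollutants gave little signal, while others of that kind, Cyp1b1, Cyp2e1, Cyp2a1 and Cyp3a23-3a1, passed the filter and are described with their families. Cyp1a1, which activates aromatic hydrocarbons, had a highest signal of 15.6 on the 30 arrays. Its relative Cyp1a2 had 3 probe sets with medians of 2.4, 5.55 and 35.2, of which the last (M26127_s_at) was above the array median on 1 array. The liver enzymes Cyp2c11 and Cyp3a2 had highest signals of 54.4 and 3.1 in their member probe sets. Cyp7a1, the rate-limiting enzyme of bile acid synthesis, had highest signals of 26.2 and 9.1 in its 2 probe sets. Aromatase (Cyp19a1), which makes oestrogens, had a median of 12.1 and a highest signal of 61.1 (WF 1), and Cyp17a1, which makes androgens, stayed at or under 7.7. The sulfotransferase of oestrogens, Sult1e1, is measured by 2 probe sets that carry 2 gene identifiers and are no members, and neither rose above 43.9.

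By the F test over the 6 groups, 22 of the 33 tested probe sets differed, for 18 of 24 genes, and 51.8% of all tested probe sets did. The filter keeps a member that is high in a single group, so this count covers the tested probe sets alone. With no filter, 24 of all 109 member probe sets were called (22.02%), against 30.7% of 8740. The gap between the highest and the lowest group mean had a median of 1.17 on the log2 scale, against 0.742 over all tested probe sets. Signal level was not matched in that comparison, and the filter bears on the gap as well. Without F1 2 and F1 3, 20 of the 33 were called (51.5% of all), without ACI 2 and ACI 5 again 20 (49.9%), and without all 4 arrays 15 (50.5%). Cyp2b15, Cyp2b2 and Cyp4b1 were lost in the first of these fits, Cyp27a1 (Y07534cds_s_at) and Cyp2c23 in the second, and these with Cyp4f6, Sult2a2 and Cyp2d4 in the last. Called in each of the fits run were 11 probe sets, of Cyp11a1, Cyp1b1 (rc_AI176856_at), Cyp27a1 (M38566mRNA_s_at), Cyp2e1 (all 3), Cyp3a23-3a1 (L24207_r_at), Sult1a1 (both), Sult5a1 and Ugt2b. Between pairs of groups the 33 probe sets gave 97 calls in 495 tests (19.6%, against 15.8% for all tested probe sets). Of these, 44 calls held with any 1 of the 30 arrays left out, and 30 of the 44 had F1 on one side. F1 was on one side of 52 of all 97. How many calls of all tested probe sets held was not computed, so these counts are not read as a trait of the members. The share of all tested probe sets called was 26.3% for Cop minus F1, 7.6% for Cop minus ACI, 23.3% for Cop minus BUF/N, 12.8% for Cop minus WF, 31.7% for F344 minus F1, 12.3% for F344 minus ACI, 23.8% for F344 minus BUF/N and 11.3% for F344 minus WF. It was 29.2% for F1 minus ACI, 17.3% for F1 minus BUF/N, 15.2% for F1 minus WF, 13.7% for ACI minus BUF/N, 7.18% for ACI minus WF and 2.22% for BUF/N minus WF. Pairs are named below where the call held in this way, a choice made after the values were seen.

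**Figure D2:**
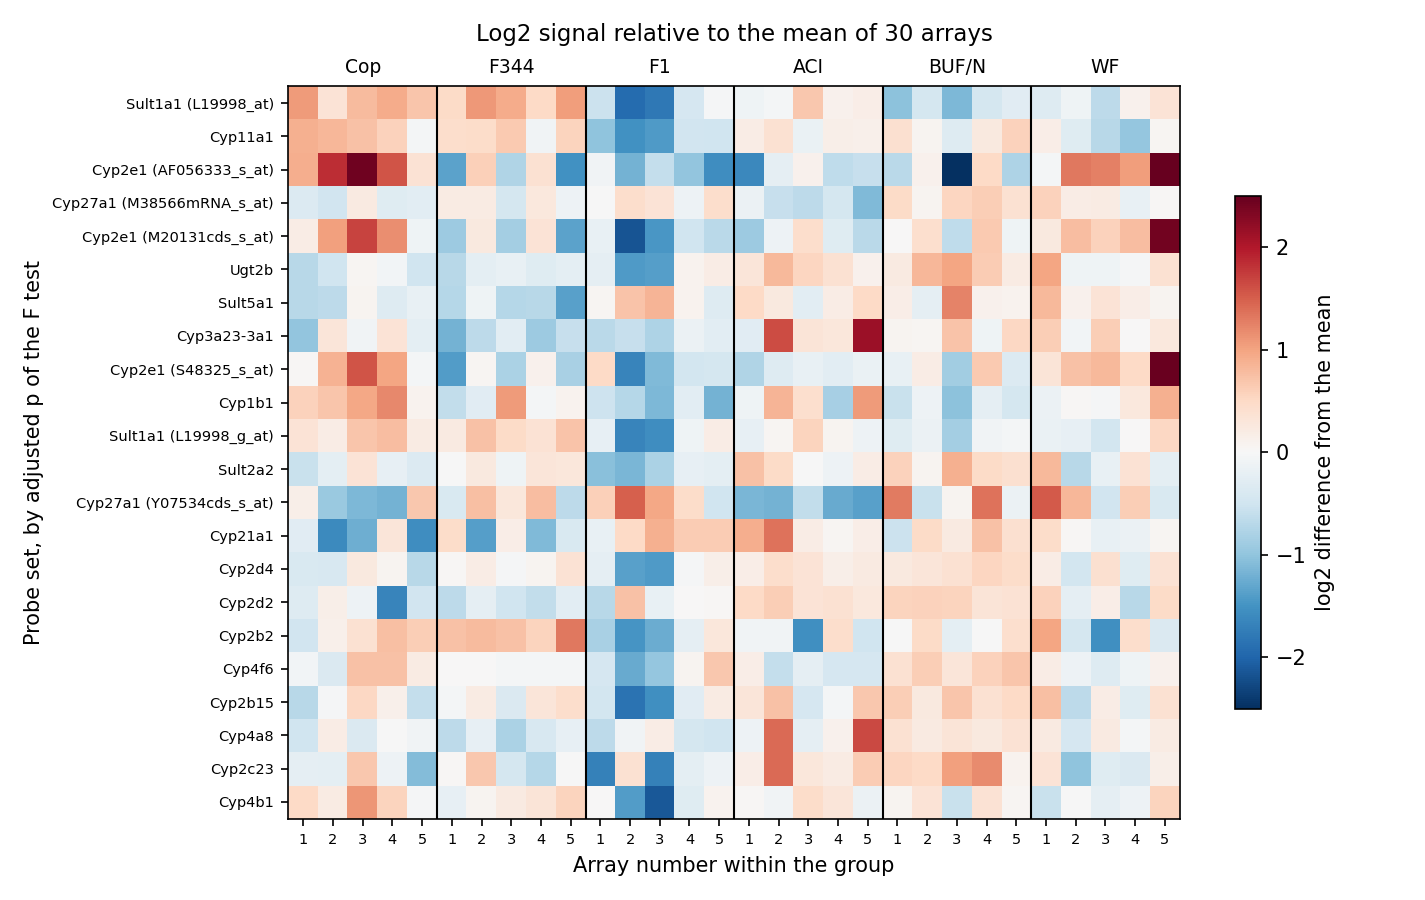
Log2 signal of the 22 probe sets that differed among the 6 groups, relative to their own mean over the 30 arrays (colour scale limited to 2.5 on either side), in order of adjusted p, with the 5 arrays of each group side by side. F1 2 and F1 3 are bluer than the other F1 arrays for Sult1a1, Cyp2d4, Ugt2b, Cyp2b15 and Cyp4b1, and ACI 2 and ACI 5 are the reddest ACI arrays for Cyp3a23-3a1 and Cyp4a8.

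Cyp1b1, which hydroxylates oestradiol and activates aromatic hydrocarbons outside the liver, was the single CYP1 gene above the filter. Its brightest probe set (rc_AI176856_at) differed among the groups (adjusted p = 0.0035). In Cop the signals were 160.2, 175, 209, 247 and 115. They were 70.7, 88.0, 226, 104 and 115 in F344 and 75.4, 65.8, 49.7, 89.6 and 47.3 in F1. All 5 Cop arrays lay above all 5 F1 arrays, while Cop and F344 overlapped. In ACI they were 99.6, 193, 144, 60.6 and 226, with ACI 2 and ACI 5 highest. In BUF/N they were 73.1, 98.5, 53.2, 92.6 and 79.6, under every Cop array, and in WF 96.6, 109.9, 106, 128 and 200. The mean was 181 ± 50.2 (SD, n = 5) in Cop, 65.6 ± 17.8 in F1 and 79.4 ± 17.8 in BUF/N. On the log2 scale Cop was 1.46 above F1 (SE 0.31, adjusted p = 0.00109) and 1.18 above BUF/N (SE 0.31, adjusted p = 0.00699). Without F1 2 and F1 3 the first difference was 1.36 (adjusted p = 0.00947).

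The other probe sets of Cyp1b1 were dimmer and did not all follow. U09540_g_at and U09540_at did not pass the F test (adjusted p = 0.0551 and 0.407), and X83867cds_s_at was not tested, with a highest signal of 70.6. In U09540_g_at the F1 signals were 38.4, 9.0, 11.6, 32.1 and 77.8, with 4 of the 5 arrays under every Cop array (78.7, 66.9, 124, 133 and 46.3). Cop minus F1 was 1.39 there (SE 0.43, adjusted p = 0.0160), and 0.86 without F1 2 and F1 3 (adjusted p = 0.2). In U09540_at the means were 103 ± 27.5 in Cop and 68.6 ± 38.7 in F1, with overlap. Cop minus BUF/N was not called in U09540_g_at or U09540_at. In the untested X83867cds_s_at BUF/N gave 50.7, 58.5, 27.2, 49.0 and 41.1, mostly above Cop with 28.1, 39.8, 32.9, 34.9 and 22.4.

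Cyp2e1 had the widest range, as highest over lowest array, of the members that were called. It oxidises small molecules such as ethanol and nitrosamines. All 3 of its probe sets differed among the groups (adjusted p = 0.000576 for AF056333_s_at, 0.00152 for M20131cds_s_at and 0.0032 for S48325_s_at), and they share a target, so they are not independent. In AF056333_s_at the Cop signals were 227, 438, 654, 363 and 156. The F344 signals were 48.4, 184, 72.0, 159 and 42.4, and those of F1 114, 53.4, 80.7, 61.3 and 41.3. Every Cop array was above every F1 array, and Cop 5 lay between the F344 arrays. ACI gave 39.7, 104, 131, 78.1 and 82.0, and BUF/N gave 76.2, 131, 17, 171 and 71.0. WF gave 118, 303, 292, 250.1 and 924. WF 5 was the highest of all 30 arrays, and BUF/N 3, the lowest, was under the floor. The order of the group means was WF, Cop, F344, BUF/N, ACI and F1 in this probe set, where the last 4 lay between 101 ± 65.6 and 70.1 ± 28.3 (SD, n = 5) and no pair among them was called.

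The pairwise differences of Cyp2e1 set Cop and WF above F1 and above other groups. In AF056333_s_at Cop was also called above ACI and F344, and WF above ACI, BUF/N and F344. Each of these calls was lost in some fits with 1 array left out. In AF056333_s_at Cop was 2.31 above F1 on the log2 scale (SE 0.53, adjusted p = 0.00204) and 2.14 above BUF/N (SE 0.53, adjusted p = 0.00409). WF was higher than F1 as well, with F1 minus WF at -2.18 (SE 0.53, adjusted p = 0.00578). These held without F1 2 and F1 3 (adjusted p = 0.0107, 0.00425 and 0.0275). M20131cds_s_at gave 1.78 for Cop minus F1 (SE 0.41, adjusted p = 0.00217) and -1.94 for F1 minus WF (SE 0.41, adjusted p = 0.0019). Without F1 2 and F1 3 these were 1.24 and -1.40 (adjusted p = 0.0476 and 0.0436). With all 4 arrays that stand apart left out, the call of Cop minus F1 in this probe set was lost (adjusted p = 0.0508). In S48325_s_at F344 minus WF was -1.53 (SE 0.39, adjusted p = 0.00975), and all WF arrays (300.0, 396, 418, 336 and 1322) exceeded all F344 arrays (90.4, 247, 138, 259 and 137). F1 minus WF was -1.59 in that probe set (SE 0.39, adjusted p = 0.00612) and -1.09 without F1 2 and F1 3 (adjusted p = 0.105). Cop minus F1 was 1.32 there (SE 0.39, adjusted p = 0.0131) and 0.82 without F1 2 and F1 3 (adjusted p = 0.179). F344 and not F1 had the lowest mean in that probe set (174). Cop minus BUF/N was not called in M20131cds_s_at or S48325_s_at. The mean log2 signals of Cop and BUF/N were 9.15 and 8.43 in M20131cds_s_at and 8.59 and 7.79 in S48325_s_at. WF 5 gave 1323 in S48325_s_at and 1759 in M20131cds_s_at, where the next WF array gave 418 and 560.0.

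**Figure D3:**
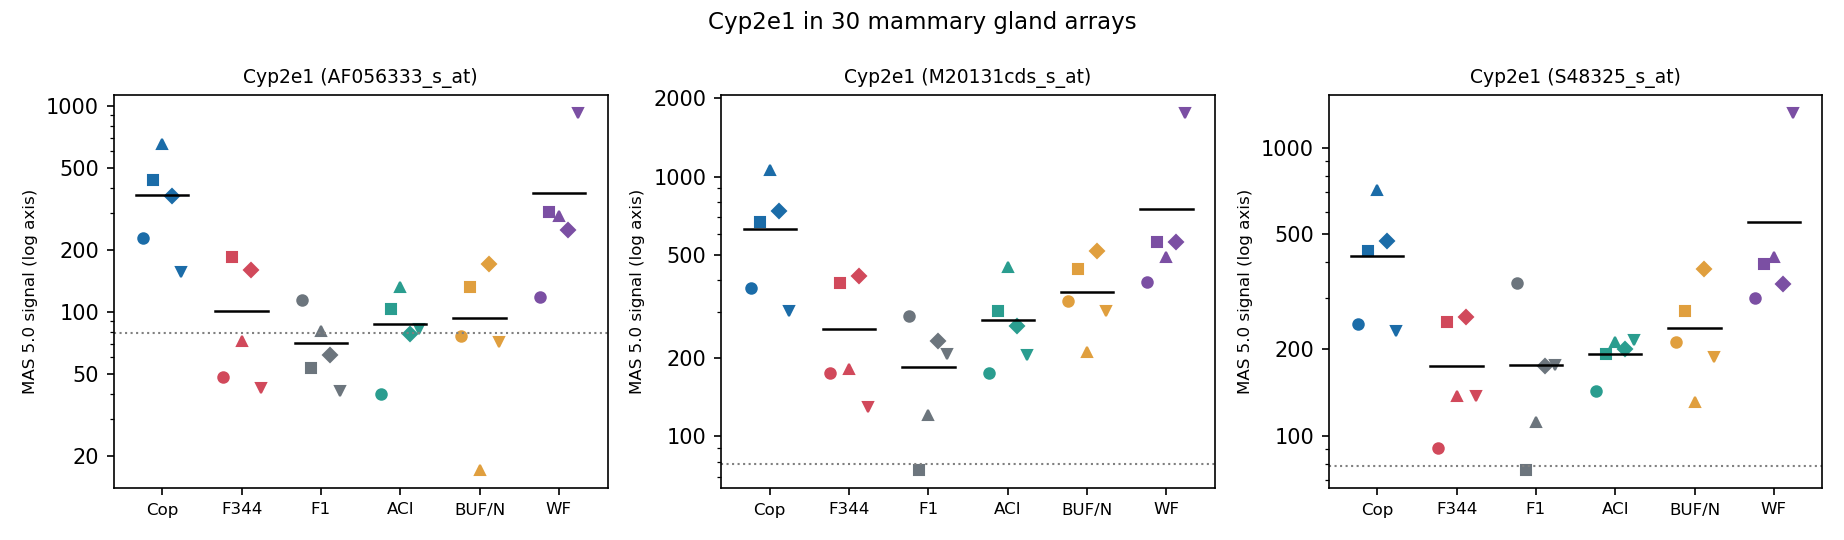
MAS 5.0 signal (log axis) of the 3 Cyp2e1 probe sets on the 5 arrays of each group, with symbols for arrays 1 to 5 (circle, square, triangle, diamond, inverted triangle), a bar at the group mean and a dotted line at the array-wide median of 78.4. WF 5 is the highest array in each panel, at 924, 1759 and 1323, and every Cop array exceeds every F1 array in the first 2 panels.

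Among the other CYP2 genes, Cyp2d4 was the brightest, with a median of 570.5 over the 30 arrays. It belongs to the subfamily of human CYP2D6, which oxidises many drugs. Its signals were 609.6, 630.1, 669.9, 744 and 707 in BUF/N and 572, 696, 647, 563 and 598 in ACI. F1 gave 437, 200, 191, 504 and 568. F1 2 and F1 3 were under every other array of the study, and the other 3 F1 arrays lay within the range of Cop and F344. The F test gave an adjusted p of 0.0126. F1 minus BUF/N was -0.96 (SE 0.24, adjusted p = 0.00646) and F1 minus ACI -0.84 (SE 0.24, adjusted p = 0.0099). Leaving out F1 2 and F1 3 gave -0.42 and -0.29 (adjusted p = 0.16 and 0.291). A second probe set, U48220_at, was above the array median on 4 arrays and was not tested. It did not follow the first, with 96.8, 71.4, 55.5, 87.9 and 79.9 in F344. It gave 20.8 to 33.5 in BUF/N, 15.8 to 51.7 in ACI and 3.3 to 41.9 in F1, and Cop 2 was highest at 111.5. Cyp2d2 differed too (adjusted p = 0.0136), from 36.3, 49.0, 40.7, 37.6 and 47.6 in F344 to 83.8, 85.2, 83.8, 72.1 and 73.6 in BUF/N without overlap. F344 minus BUF/N was -0.92 (SE 0.28, adjusted p = 0.0187), a call lost under quantile normalization (0.061) and with the floor at the 10th percentile of the signals (0.0798). Cyp2d3 did not pass the F test (adjusted p = 0.0716).

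The CYP2B genes oxidise drugs and are induced by phenobarbital in the liver, and their member probe sets gave weaker signals than Cyp2d4. Cyp2b2 (K01721mRNA_s_at) had 88.3, 92.1, 88.6, 78.2 and 132 in F344 and 30.3, 19.1, 22.4, 45.5 and 64.3 in F1, without overlap. F344 minus F1 was 1.52 (SE 0.39, adjusted p = 0.00415), and 1.08 without F1 2 and F1 3 (adjusted p = 0.0785). The F test of Cyp2b2 (adjusted p = 0.0234) was lost when F344 5 was left out (adjusted p = 0.0605). Cyp2b15 had 133, 102, 140.2, 112 and 122 in BUF/N and 62.6, 24.1, 29.8, 70.4 and 99.2 in F1. All BUF/N arrays exceeded all F1 arrays, and F1 2 and F1 3 were the lowest of the 30 arrays. Its F test (adjusted p = 0.0249) was lost without F1 2 (0.0989) or F1 3 (0.0925), and F1 minus BUF/N went from -1.27 (SE 0.32, adjusted p = 0.00758) to -0.67 without both (adjusted p = 0.158). Its probes are marked as matching a gene family, so related genes may contribute. Cyp2b1 is measured by probe sets that also list Cyp2b2 and were no members. The brightest of them, K00996mRNA_s_at, was above the array median on 29 arrays, with a median of 236.5 (F test, adjusted p = 0.0881). The others, L00320cds_f_at and M11251cds_f_at, had highest signals of 31.2 and 49.6.

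Cyp2a1, which hydroxylates testosterone, was above the array median on all arrays, from 119.5 (WF 4) to 358.8 (WF 1), and missed the F test (adjusted p = 0.0507). It was called without F1 2 and F1 3. Cyp2c23, an epoxygenase of arachidonic acid, had means from 40.7 ± 28.5 in F1 to 96.4 ± 28.6 in BUF/N (SD, n = 5). Its F test (adjusted p = 0.028) was lost when F1 1, F1 3, BUF/N 3 or BUF/N 4 was left out (adjusted p = 0.0547 to 0.0588). Cyp2a2 and Cyp2j3 did not pass (adjusted p = 0.187 and 0.423).

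Cyp3a23-3a1, a steroid and drug hydroxylase, was the only CYP3 member gene above the filter. In L24207_r_at, the probe set that passed the F test (adjusted p = 0.00312), F344 gave 38.6, 56.2, 73.7, 46.7 and 58.8 and ACI gave 72.6, 272, 110.2, 107 and 386. ACI 2 and ACI 5 stood far above the other arrays, and ACI 1 lay within the F344 range. F344 minus ACI was -1.53 (SE 0.33, adjusted p = 0.00218), and -0.83 without ACI 2 and ACI 5 (adjusted p = 0.086). F1 minus ACI moved in the same way, from -1.30 (SE 0.33, adjusted p = 0.00406) to -0.60 (adjusted p = 0.126). All 5 BUF/N arrays (91.9, 91.1, 144, 81.9 and 126) and all 5 WF arrays (136, 84.0, 135, 88.2 and 106) exceeded all 5 F344 arrays. L24207_i_at and X64401cds_s_at did not pass (adjusted p = 0.087 and 0.112), and ACI 2 was the highest or second highest array in both (255 and 223). D13912_s_at was not tested, with a highest signal of 54.9. X62086mRNA_s_at lists both Cyp3a2 and Cyp3a23-3a1 and is no member. It was above the array median on 29 arrays, with a median of 131.8 (F test, adjusted p = 0.03855).

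CYP4 signal came from 3 genes. Cyp4f6, which acts on fatty acids, ranged from 105.5 (F1 2) to 419.4 (Cop 3). BUF/N gave 329, 385, 311, 377 and 409 and ACI 282, 166, 215, 187 and 189.5, without overlap. ACI minus BUF/N was -0.82 (SE 0.25, adjusted p = 0.0246), a call lost in 4 of the 30 fits with 1 array left out. The F test (adjusted p = 0.0235) was lost without BUF/N 5 (0.0509). Cyp4b1, which activates some aromatic amines outside the liver, gave 186, 153, 283, 195 and 129 in Cop and 132, 50, 30.6, 108 and 139.8 in F1. F1 2 and F1 3 were the lowest of the 30 arrays, while F1 1 and F1 5 lay within the Cop range. Cop minus F1 was 1.21 (SE 0.31, adjusted p = 0.00444), and 0.54 without F1 2 and F1 3 (adjusted p = 0.128). The F test of Cyp4b1 (adjusted p = 0.0291) was lost without F1 2 (0.105), F1 3 (0.112) or Cop 3 (0.0529). Cyp4a8 (rc_AA893011_at) gave 60.8, 178, 56.7, 71.7 and 209 in ACI, where ACI 2 and ACI 5 were the highest of all arrays. Its F test (adjusted p = 0.0249) was lost without ACI 2 (0.0628) or ACI 5 (0.0517). The second probe set of Cyp4a8 did not pass (adjusted p = 0.136).

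Cyp11a1, the mitochondrial enzyme that cuts the cholesterol side chain in the first step of steroid synthesis, was low in F1 and in part of WF. Its signals stood around the array median. Cop gave 135, 129, 122, 109 and 70.7, F344 gave 98.5, 101, 115, 68.6 and 107, and F1 gave 36.5, 25.5, 27.5, 52.4 and 51.6. All 5 F1 arrays lay under all arrays of Cop, F344, ACI and BUF/N. ACI gave 82.7, 94.8, 64.6, 80.8 and 79.9. BUF/N gave 96.1, 76.6, 58.4, 86.2 and 108, and WF gave 81.7, 59.0, 45.2, 37.5 and 75.6, where WF 3 and WF 4 lay within the F1 range. The F test gave an adjusted p of 7.94e-05. Cop was 1.58 above F1 on the log2 scale (SE 0.25, adjusted p = 4.16e-05) and 0.95 above WF (SE 0.25, adjusted p = 0.00967). F344 was 1.38 above F1 (SE 0.25, adjusted p = 0.000152). F1 minus BUF/N was -1.17 (SE 0.25, adjusted p = 0.00221) and F1 minus ACI -1.11 (SE 0.25, adjusted p = 0.00146). With F1 2 and F1 3 left out the differences were 1.26 for Cop minus F1 (adjusted p = 0.00129), 1.06 for F344 minus F1 (adjusted p = 0.00586) and -0.85 for F1 minus BUF/N (adjusted p = 0.0388). F1 minus ACI was -0.79 without them (adjusted p = 0.0355), and its call was lost with ACI 2 and ACI 5 left out too (-0.71, adjusted p = 0.123).

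Markers of steroid-producing cells had their lowest mean in F1 too, but their highest in WF, where Cyp11a1 was low on some arrays. Of 7 such genes, none of them a member, 4 (Star, Nr5a1, Fdx1 and Inha) are on the array, and 2 of these, Star and Inha, differed among the groups by the F test. Their summed signal was 462.6 to 638.4 in F1, 637.6 to 705.5 in Cop, 596.4 to 717.7 in F344, 579.1 to 837.5 in ACI, 601.8 to 745.1 in BUF/N and 636.4 to 817.7 in WF. The mean log2 signal of the 4 was 6.34 ± 0.29 in F1, the lowest of the groups, and 6.97 ± 0.20 in WF, the highest (SD, n = 5). Within F1 the sum was highest on F1 3 (638.4) and F1 2 (610.3), the arrays with the lowest Cyp11a1 signals. Nr5a1, which drives Cyp11a1 in steroid-producing organs, was above the array median on no array and had a median at the floor. The part of these cells in the result was not tested.

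Cyp21a1, the 21-hydroxylase of corticosteroid synthesis, was above the array median on 6 arrays. Cop gave 45.5, 18.0, 23.7, 67.9 and 18.7 and F1 gave 48.4, 77.2, 101, 85.5 and 86.0, with F1 1 inside the Cop range. Cop minus F1 was -1.36 (SE 0.37, adjusted p = 0.00724), and -1.23 without F1 2 and F1 3 (adjusted p = 0.0468). Its F test (adjusted p = 0.0105) and this pair were lost with the floor at the 40th percentile of the signals (0.065 and 0.0548). Cyp11b2 was not tested, with a highest signal of 45.3.

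Cyp27a1, a mitochondrial 27-hydroxylase of cholesterol, was lowest in ACI in both of its probe sets. In M38566mRNA_s_at (adjusted p = 0.000679) ACI gave 241, 180.1, 169, 196 and 124. BUF/N gave 371, 282, 389, 409.9 and 348, and F1 gave 267, 362, 337, 244 and 364. Neither group overlapped with ACI. Cop gave 212, 192, 312, 216 and 222, F344 gave 308, 310.3, 198, 322 and 245, and WF gave 401, 302, 309, 235 and 273. ACI minus BUF/N was -1.0 (SE 0.18, adjusted p = 0.000348), and -0.84 without ACI 2 and ACI 5 (adjusted p = 0.00956). ACI minus WF was -0.75 (SE 0.18, adjusted p = 0.00937), and -0.58 without these arrays (adjusted p = 0.113). F1 minus ACI was 0.80 (SE 0.18, adjusted p = 0.00173), and 0.69 without F1 2 and F1 3 (adjusted p = 0.0223). That call was lost with ACI 2 and ACI 5 left out too (0.52, adjusted p = 0.129). Cop minus BUF/N was -0.65 (SE 0.18, adjusted p = 0.00993). In Y07534cds_s_at (adjusted p = 0.00917) ACI gave 45.1, 44.0, 65.5, 41.7 and 39.2, under every F1 and BUF/N array. That F test was lost without ACI 2 and ACI 5 (0.0504). F1 minus ACI was 1.72 there (SE 0.43, adjusted p = 0.00416), and 1.30 without F1 2 and F1 3 (adjusted p = 0.0618). ACI minus BUF/N was -1.52 there (SE 0.43, adjusted p = 0.0174), a call lost in 2 of the 30 fits with 1 array left out.

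The other genes of this class did not differ by the F test. Cyp24a1, which breaks down vitamin D hormone, ranged from 18.6 to 224.9 with an adjusted p of 0.0809. Cyp7b1, the oxysterol 7-hydroxylase, ranged from 27.5 to 103.2 (adjusted p = 0.415). Cyp27b1, which makes the active hormone, was above the array median on 4 arrays, and Cyp26b1, which breaks down retinoic acid, on none.

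Among the glucuronosyltransferases, 1 member had signal. It was the probe set M74439mRNA_i_at, named Ugt2b, of a family that conjugates steroids and bile acids. Its signals were 316, 476, 532, 416 and 308 in BUF/N and 332, 470.2, 389, 351 and 288 in ACI. Cop gave 167, 191, 279.5, 257 and 189.7, and F344 gave 166, 228, 235, 218 and 227. All arrays of BUF/N and ACI lay above all arrays of Cop and F344, but Cop minus ACI and F344 minus ACI were not called. F344 minus BUF/N was -0.91 (SE 0.27, adjusted p = 0.016), and that call was lost in 1 of the 30 fits with 1 array left out (adjusted p = 0.0541). WF gave 531, 249, 248, 263 and 351. F1 gave 229, 101, 103, 287 and 306, with F1 2 and F1 3 the lowest of the 30 arrays. The F test gave an adjusted p of 0.0027, and Cop minus BUF/N was -0.91 (SE 0.27, adjusted p = 0.0135). F1 minus BUF/N was -1.12 (SE 0.27, adjusted p = 0.00506) and F1 minus ACI -0.97 (SE 0.27, adjusted p = 0.00785). Leaving out both arrays gave -0.56 and -0.41 (adjusted p = 0.126 and 0.223). The other probe sets named Ugt2b, X03478cds_f_at and rc_AI169708_s_at, had highest signals of 17.3 and 53.8 and were not tested. The account of Ugt2b therefore rests on M74439mRNA_i_at alone. Ugt2b1 was above the array median on 2 arrays, with a median of 32.9.

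Signal from the Ugt1 locus was seen in probe sets that are no members. The Ugt1 gene makes several enzymes from alternative first exons and shared last exons, and 12 probe sets there list several Ugt1 genes. Of these, 9 were tested, and the brightest, J05132_s_at, had a median of 1066. Its means were 1084 ± 157 in Cop, 1305 ± 94.2 in F344, 792 ± 306 in F1, 1486 ± 237 in ACI, 900.2 ± 168 in BUF/N and 877 ± 257 in WF (SD, n = 5; adjusted p = 0.00181). The 2 members of the locus, Ugt1a5 and Ugt1a9-ps, never rose above 19.0, so the level of a single Ugt1 enzyme was not measured by a member.

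Sult1a1, the phenol sulfotransferase that acts on phenols, oestrogens and hydroxylated carcinogens, was the brightest member and had the smallest adjusted p of the F test (1.67e-05 for L19998_at). Cop gave 1096, 665, 908, 991 and 844, and F344 gave 734, 1111, 1001, 742 and 1080.3. F1, the hybrid of the pair, gave 363, 139, 152, 394 and 511. All 10 arrays of the parental strains lay above all 5 arrays of the hybrid, and F1 2 and F1 3 were the lowest of the 30 arrays. ACI gave 485, 507, 835, 566 and 590.1. BUF/N gave 256, 388, 239, 387 and 432, and WF gave 422, 486, 332, 566 and 666. The BUF/N arrays did not overlap with those of Cop, F344 or ACI. ACI minus BUF/N was 0.82 (SE 0.28, adjusted p = 0.0447), a call lost in 11 of the 30 fits with 1 array left out. Cop was 1.70 above F1 on the log2 scale (SE 0.28, adjusted p = 6.19e-05) and F344 1.75 (SE 0.28, adjusted p = 3.81e-05). With both these arrays left out the differences were 1.09 and 1.14 (adjusted p = 0.00147 and 0.00131). Cop was 1.42 above BUF/N (SE 0.28, adjusted p = 0.000383) and F344 1.47 (SE 0.28, adjusted p = 0.000464). F1 minus ACI was -1.09 (SE 0.28, adjusted p = 0.00423), and -0.48 without F1 2 and F1 3 (adjusted p = 0.145).

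The second Sult1a1 probe set, L19998_g_at, was called as well (adjusted p = 0.00424), and both share a target. Its means were 1557 ± 297 in Cop, 1618 ± 242 in F344, 813 ± 418 in F1, 1208 ± 267 in ACI, 945 ± 188 in BUF/N and 1113 ± 306 in WF (SD, n = 5). F344 minus F1 was 1.17 (SE 0.27, adjusted p = 0.00163), and 0.54 without F1 2 and F1 3 (adjusted p = 0.0648). The differences from BUF/N were smaller than in L19998_at. Cop minus BUF/N was 0.73 (SE 0.27, adjusted p = 0.0461) and F344 minus BUF/N 0.79 (SE 0.27, adjusted p = 0.0318). These calls were lost in 15 and 5 of the 30 fits with 1 array left out. The other SULT1 genes, Sult1b1, Sult1c2a, Sult1c3 and Sult1d1, were above the array median on at most 1 array each.

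Sult5a1 was bright and lowest in F344. F344 gave 383, 584, 384, 389 and 244. Cop gave 388, 402, 659, 503 and 556, and WF gave 1101, 682, 796, 706 and 661. All WF arrays lay above all arrays of Cop and F344, but Cop minus WF was not called. F1 gave 656, 1034, 1131, 669.5 and 505, with F1 2 and F1 3 highest of the hybrid. ACI gave 889.5, 744, 528, 718 and 888, and BUF/N gave 704, 538, 1482, 674 and 670.4. The F test gave an adjusted p of 0.00287. F344 minus WF was -1.02 (SE 0.25, adjusted p = 0.00738) and F344 minus BUF/N -0.99 (SE 0.25, adjusted p = 0.00579). F344 minus F1 was -1.0 (SE 0.25, adjusted p = 0.00362), and -0.66 without F1 2 and F1 3 (adjusted p = 0.0825). Sult2a2, of the family that sulfates hydroxysteroids, gave 156, 109.6, 195, 145 and 138 in BUF/N and 50.7, 47.8, 61.0, 91.0 and 88.3 in F1 without overlap (F test, adjusted p = 0.00427). F1 minus BUF/N was -1.16 (SE 0.24, adjusted p = 0.00209), and -0.98 without F1 2 and F1 3 (adjusted p = 0.0242). The remaining 9 probe sets of SULT2 genes, most of which match the whole family, were above the array median on no array.

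**Figure D4:**
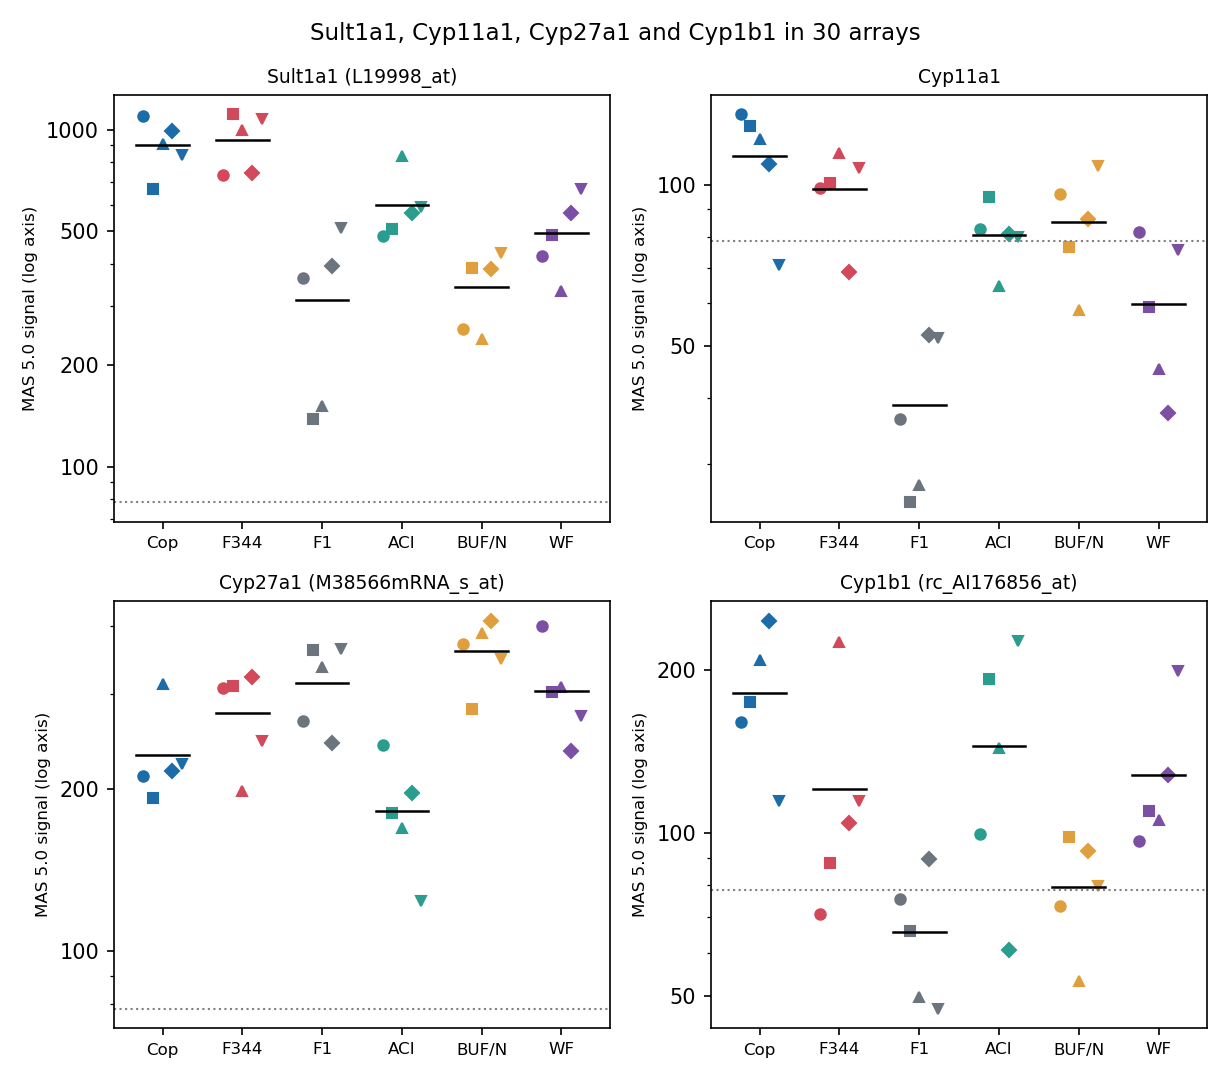
MAS 5.0 signal (log axis) of 1 probe set each of Sult1a1, Cyp11a1, Cyp27a1 and Cyp1b1 on the 5 arrays of each group, with symbols for arrays 1 to 5 (circle, square, triangle, diamond, inverted triangle), a bar at the group mean and a dotted line at the array-wide median of 78.4. In Sult1a1 and Cyp11a1 all F1 arrays lie under all Cop and F344 arrays, and in Cyp27a1 the ACI mean of 182 is the lowest.

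Between Cop and F344, the parental strains of the hybrid, few members were called, as were few of all tested probe sets. By limma's test 1 of the 33 was called (3.45% of all tested probe sets were), namely Cyp2e1 in AF056333_s_at, 1.95 higher in Cop on the log2 scale (SE 0.53, adjusted p = 0.0325). Without adjustment 4 members were past 0.05, and the share of all tested probe sets was not computed for that. The call was lost when Cop 2, Cop 3, Cop 4, F344 1, F344 3 or F344 5 was left out (adjusted p = 0.068 to 0.119), and 0 members were called without the filter. The other Cyp2e1 probe sets differed by 1.29 and 1.25 and were called as well, 3 in all, without Cop 5, without WF 5 or without F1 2 and F1 3. In the pools, which are single arrays with no test, Cyp2e1 gave 294 for Cop and 80.8 for F344 in AF056333_s_at. No member set 1 inbred strain apart from each of the other 4 by limma's test, at the adjusted or the unadjusted threshold (0 in both), while 2.88% of all tested probe sets did at the adjusted one and 650 of the 5039 at the unadjusted one.

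The hybrid differed from the mean of its parental strains in 14 of 33 probe sets, for 11 genes, and 35.2% of all tested probe sets did. Of the 14, 12 were lower in F1 (17.8% of all tested probe sets were) and 2, Sult5a1 and Cyp21a1, were higher (17.4%). Without F1 2 and F1 3 the count was 4 (20.5% of all), for both Sult1a1 probe sets, Cyp11a1 and Cyp1b1 (rc_AI176856_at). The change of Sult1a1 in L19998_at was -1.72 (SE 0.24, adjusted p = 5.08e-06), and -1.11 without both arrays (adjusted p = 0.000446). In L19998_g_at it was -1.14 (SE 0.23, adjusted p = 0.000431), and -0.51 without them (adjusted p = 0.0488). That of Cyp11a1 was -1.48 (SE 0.21, adjusted p = 8.13e-06), and -1.16 without them (adjusted p = 0.000918). That of Cyp1b1 was -1.13 (SE 0.27, adjusted p = 0.00199), and -1.03 without them (adjusted p = 0.0259). The change of Cyp2e1 in AF056333_s_at was -1.33 in both fits, with adjusted p = 0.0238 and 0.094. In S48325_s_at the change was -0.69 and was not called (SE 0.34, adjusted p = 0.111).

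The other calls did not hold without F1 2 and F1 3. Cyp1b1 in U09540_g_at went from -1.33 to -0.80, Cyp2b2 from -1.25 to -0.81, and Cyp2e1 in M20131cds_s_at from -1.13 to -0.59. Cyp4b1 went from -1.07 to -0.40, Cyp2b15 from -0.77 to -0.17 and Cyp2d4 from -0.52 to 0.023. Cyp21a1 went from 1.15 to 1.02 (adjusted p = 0.00610 and 0.0625) and Sult5a1 from 0.82 to 0.48 (0.00445 and 0.154). Over the 33 probe sets the median change was -0.46, and -0.087 without both arrays. Leaving out F1 2 alone gave 9 calls and F1 3 alone gave 11, and the share of all tested probe sets was not computed for these 2 fits. The calls of Cyp2b15, Cyp2e1 (both) and Sult2a2 were lost without F1 2 alone (adjusted p = 0.171, 0.0622, 0.0856 and 0.0699). Those of Cyp2b15 (0.135) and Cyp2e1 in M20131cds_s_at (0.0502) were also lost without F1 3, that of Cyp2b15 without Cop 3 (0.0557) or F344 5 (0.0504), that of Cyp2e1 in AF056333_s_at without F1 5 (0.0626) and that of Sult2a2 without F1 1 (0.0539). That of Cyp2d4 (adjusted p = 0.0492) was lost in 23 of the 30 fits with 1 array left out.

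**Figure D5:**
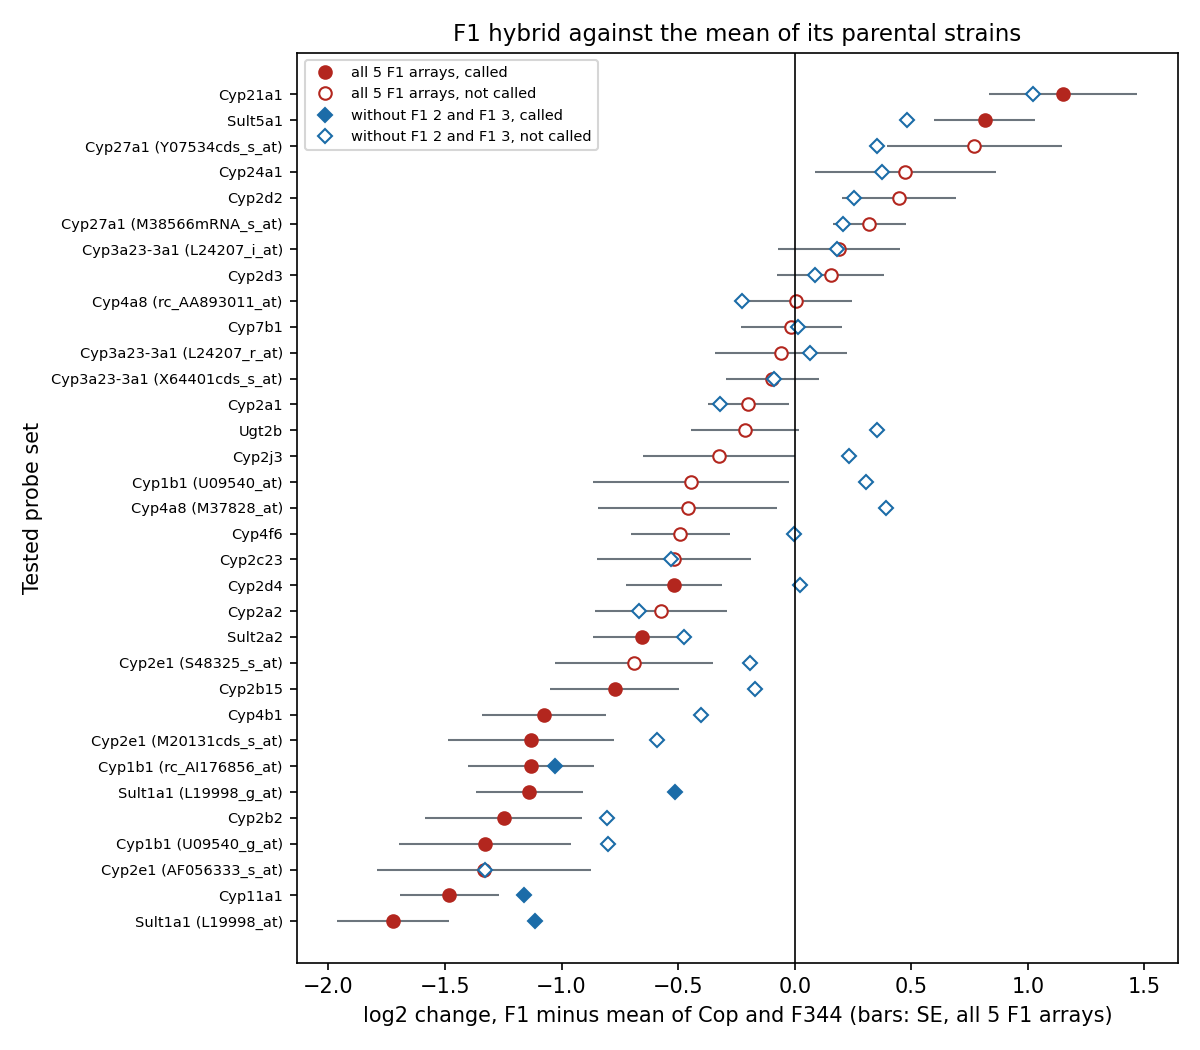
Log2 change of F1 against the mean of Cop and F344 for the 33 tested probe sets, with all 5 F1 arrays (circles, bars are SE) and without F1 2 and F1 3 (diamonds); filled symbols passed limma's test at an adjusted p of 0.05. Of the 14 filled circles, 4 have a filled diamond, for Sult1a1, Cyp11a1 and Cyp1b1.

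The partners of these enzymes were looked at through 67 genes, of which 47 are on the array and 33 were tested. Of these, 18 differed among the groups (54.5%), against 51.8% of all tested probe sets. By class the calls were 3 of 6 electron donors, 3 of 7 receptors and regulators, 3 of 4 genes for cofactors, 1 of 2 for deconjugation, 6 of 7 other enzymes of conjugation and oxidation, 2 of 5 steroid dehydrogenases and reductases and 0 of 2 transporters. Por, the reductase that passes electrons to microsomal P450s, was lowest in ACI (572 ± 115) and highest in F344 (824 ± 64.8; SD, n = 5; F test, adjusted p = 0.0208). Cyb5a, a further electron donor, had a mean of 468 ± 227 in F1 against 1159 ± 494 in Cop and 1319 ± 96.2 in F344 (adjusted p = 0.000288). Hsd17b12, a dehydrogenase of fatty acid and oestrogen synthesis, gave 276 ± 83.9 in F1 and 302 ± 57.5 in BUF/N against 854 ± 209 to 899 ± 54.6 in Cop, F344 and ACI (adjusted p = 1.09e-07). Ahr, the receptor that induces the CYP1 genes, was not tested, with signals of 11.2 to 75.0.

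Other partners moved in several directions. Maob and Maoa, which oxidise amines, had lower means in F1 (114 ± 23.0 and 332 ± 36.6) than in Cop (184 ± 50.5 and 512.5 ± 82.1; F test, adjusted p = 0.000229 and 0.00162). Nat1, which acetylates aromatic amines, gave 96.9 ± 52.3 in F1 and 226 ± 10.4 in F344 (adjusted p = 0.00242). Fmo1, a flavin oxygenase, was highest in WF at 816 ± 312 and gave 277 ± 164 in F1 (adjusted p = 0.00188). The vitamin D receptor Vdr was highest in BUF/N at 257 ± 38.6 and lowest in Cop at 121 ± 12.6 (adjusted p = 0.00179). Hsd11b2, which inactivates corticosteroids, gave 167 ± 22.2 in Cop and 181 ± 72.0 in F1, and 70.8 ± 38.8 to 86.4 ± 10.3 in the other 4 groups (adjusted p = 0.000514).

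Markers of the cell types in the gland differed between the groups too. Summed over 9 genes on the array, adipocyte markers ran from 24240 to 29730 in Cop, 21710 to 24200 in F344, 22620 to 27270 in F1, 17980 to 22380 in ACI, 14710 to 18780 in BUF/N and 17790 to 25200 in WF, and all 9 were above the array median on all arrays. Cop was high in both these markers and Cyp2e1, while WF 5, the highest array in Cyp2e1, had an adipocyte sum of 18813. Luminal markers (7 genes) ran from 2275 to 4500 in Cop, 4360 to 6168 in F344, 4907 to 7834 in F1, 3800 to 6178 in ACI, 6826 to 8535 in BUF/N and 6353 to 8448 in WF. Milk protein genes (6) ran from 4515 to 11040 in Cop and 6851 to 10080 in F344, against 17100 to 35830 in F1, where F1 3 was highest. They ran from 11500 to 21200 in ACI, 12250 to 29070 in BUF/N and 8510 to 24300 in WF. Skeletal muscle markers (9 genes) ran from 208.7 to 3035 in F1 and from 423.9 to 23600 over Cop and F344. They ran from 1508 to 11050 in ACI, 522.2 to 5714 in BUF/N and 497.4 to 7795 in WF. Myoepithelial and smooth muscle markers (8 genes) ran from 10560 to 13430 in F1 and from 5252 to 8348 over Cop and F344. They ran from 7560 to 10370 in ACI, 8174 to 9753 in BUF/N and 9342 to 12380 in WF. Macrophage markers (5 genes) ran from 3075 to 5498 in ACI and 5558 to 6801 in F1. They ran from 5063 to 6088 in Cop, 5114 to 6316 in F344, 3838 to 5552 in BUF/N and 3512 to 4788 in WF. The part of these cell types in the results was not tested.

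Liver tissue was checked because many members are liver enzymes. Of 11 hepatocyte genes, Fgb, Tat and Ambp were above the array median on no array, and these and Ahsg had medians at the floor. The sum of the 11 was 374.4 to 2005 in F1, 417 to 941 in ACI and 435.4 to 1012 over the other groups, and F1 2 was the highest of the 30 arrays.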

How the data were processed

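Signals were deposited as 1 linear intensity per probe set and array, made by the authors with Affymetrix Microarray Suite 5.0 from 5 µg of total RNA per sample, per the labels. No normalization between arrays beyond scaling was seen, and trimmed means of the arrays were 250.3 to 250.4. The array number limits the precision. Gene symbols came from the platform annotation, with 1 symbol for 7018 probe sets, several for 308 and none for 1473.

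Signals were floored at 18.3 (the 25th percentile), put on the log2 scale and fitted with limma 3.58.1 in R 4.3.3 (lmFit, then eBayes with a trend), with 6 groups of 5 arrays. The 59 control probe sets were left out, and the 5039 probe sets above the filter were tested. Adjusted p-values are Benjamini-Hochberg over these 5039, separately for the F test, each of 15 pairs and F1 against the mean of Cop and F344, with a threshold of 0.05. A strain was apart if it passed against each of the other 4 in 1 direction. Alternatives were other floors, filters and scalings, log2(signal + 50), array weights, no trend, a replicate block, the pools as sixth samples and arrays left out.

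Values were named for each member gene that passed a test or was above the median on all arrays, for a short list of well known enzymes, and for at most 8 partner genes by adjusted p, plus Por and Ahr. Members, gene lists and marker lists were chosen with earlier results of these data known. Sample numbers did not pair the arrays.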

Additional observations from a re-analysis of the deposited data

Results flagged for a closer look

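In 15 of the 198 groups of 5 arrays examined, 1 array lay far from the other 4. The measure is its gap to the nearest of them as a share of the range of the group, listed where it passes Dixon's 95% critical value of 0.71, and chance gives about 5% of groups.

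WF 5 was far above the other WF arrays for Cyp2e1, at 1759 against 391 to 560.0 in M20131cds_s_at (share 0.762) and 1323 against 300.0 to 418 in S48325_s_at (0.777). In S48325_s_at ACI 1 was low at 143 against 192 to 214 (0.731). Other arrays were high for Sult5a1 (BUF/N 3, 1482 against 539 to 704, share 0.736), Cyp27a1 in Y07534cds_s_at (ACI 3, 65.5 against 39.2 to 45.1, share 0.727) and Cyp2a2 (F344 1, 71.4 against 46.0 to 52.2, share 0.712).

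Low arrays were found for Ugt2b (F344 1, 166 against 218 to 235, share 0.789), Cyp2a1 (F344 3, 137 against 187 to 208, share 0.746), Cyp24a1 (Cop 2, 44.2 against 72.7 to 84.8, share 0.764) and Cyp4a8 in M37828_at (BUF/N 4, 75.2 against 119 to 138, share 0.76). Cyp3a23-3a1 had BUF/N 5 low in L24207_i_at (71.6 against 144 to 172, share 0.798) and F344 3 low in X64401cds_s_at (67.0 against 92.1 to 100.4, share 0.787). Cyp1b1 had BUF/N 3 low in U09540_g_at (6.4 against 49.3 to 69.4, share 0.743) and in U09540_at (17.8 against 70.5 to 120.2, share 0.717), and F344 4 low in U09540_at (5.2 against 72.6 to 99.3, share 0.815).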

How the results depend on the processing

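The count of 22 probe sets that differ among the groups was 15 to 26 under the other settings and 20 to 25 with 1 array left out. Of all tested probe sets, 30.7% to 65.1% differed under the other settings and 46.2% to 57.0% with 1 array left out. The member count is out of 33, but out of 109 with no filter (24 called, 30.7% of all), 23 with a filter of 15 arrays (18, 52.9%) and 32 with quantile normalization (18, 47.6%). The single call between Cop and F344 became 0 without the filter and 3 with array weights, with the pools, without F1 2 and F1 3 and without these and ACI 2 and ACI 5. With 1 array left out it was 0 to 3. The 14 calls of F1 against the mean of Cop and F344 became 4 without F1 2 and F1 3 (20.5% of all tested probe sets), 4 without all 4 arrays (24.1%), and 9 to 15 with 1 array left out. The 0 members apart in 1 strain stayed at 0 in each fit. With the level for expression at the 60th percentile, 21 probe sets passed on at least 5 arrays and 4 on all 30, and at the 40th percentile 13 on all 30. With 1 array left out these counts were 32 to 33 and 8 to 10.

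With the replicate block the counts were 22 among groups, 1 between Cop and F344 and 13 for F1. Over 75 same-number pairs the median correlation of deviations was -0.016 and 16 were above 0.1, so the numbers do not pair the arrays. Called differences that changed sign were F1 minus ACI of Cyp4a8 in M37828_at (0.084 without all 4 arrays) and F1 against its parents for Cyp2d4 (0.023 without F1 2 and F1 3, and without all 4 arrays). Over all 33 probe sets, called or not, F1 against its parents had the other sign in 8 without F1 2 and F1 3. The cause of these changes was not tested. Centring each array on its median moved the median difference by 0.11 for Cop minus ACI, 0.12 for F344 minus ACI and 0.11 for F1 minus ACI. Signals near the floor limit what can be said of the 76 untested probe sets.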
